A study of Mus musculus with 13 samples.

Results

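The interferon-stimulated antiviral effectors described here are 10 mouse genes, Ifit1, Ifit2, Ifit3, Ifi44, Rsad2, Isg15, Oasl1, Oasl2, Mx1 and Ifih1, out of 14659 genes that carried an acetylated island in at least 1 library. They were chosen by name, and each gene's value is the number of ChIP reads in the deposited islands that overlap its span or the 1 kb on either side. The mark is H3K27ac, acetylated lysine 27 of histone H3, which active promoters and enhancers carry. ChIP-seq measured it in 13 libraries of bone marrow-derived macrophages from C57BL/6 mice, on day 7 of culture in L929-conditioned medium. In a cytokine experiment of 7 libraries, 1 was untreated and the rest had interferon-γ (IFNγ) at 100 ng/ml, interleukin-4 (IL-4) at 10 ng/ml, or the 2 together, each for 2 h and for 4 h. An shRNA experiment supplied 6 more, from scramble control cells and from cells with an shRNA to Junb (shJunB) or to Cebpb (shCEBP-beta), each untreated and after 4 h of IFNγ at 100 ng/ml. The labels name no shRNA for the first 7 libraries, which are called unmodified below. They give no age, and they do not say how many mice a library holds or how the shRNAs were delivered.

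Each condition had 1 library, so a ratio of 2 libraries has no replicate check, and its interval covers counting error only. The reads also carry no molecular identifiers. Values are normalised reads, the raw reads in islands divided by a size factor for each library. A gene is called higher or lower in a pair of libraries when the ratio is at least 2 and the higher library has at least 50 normalised reads, and this call is a rule of size and not a test. An island can run past a gene, so values are also given in proportion to overlap, which counts an island's reads by the share of its length inside the gene's window. Libraries had 10.1 to 29.5 M reads in islands, with 16.8 M in the untreated unmodified library. IFNγ for 4 h had 28.1 M in unmodified and 10.1 M in scramble cells, and both cytokines for 4 h had 29.5 M. Any part of this difference in the length of islands, and so in the levels below, was not tested. The covered length was 218 to 244 Mb for libraries with an shRNA and 176 to 206 Mb for the others. All 8 macrophage markers, among them Csf1r, Adgre1 and Spi1, had an island in every library. Their summed level was 36379 to 55896 normalised reads. That of the T cell markers was 925 to 9732, with Cd3d, Cd4 and Lck called in all 13 libraries, Cd3e in 2 and Cd8a in 0. B cell markers summed to 1205 to 7402, dendritic cell markers to 3078 to 13891 and neutrophil markers to 90 to 2234. NK cell, mast cell or basophil, and fibroblast markers each summed to at most 183 in any library. With 4 h of IFNγ over 4 backgrounds, 1 of 8 macrophage markers rose, Itgam by 0.42 on the log2 scale (adjusted p = 0.0336, edgeR), and 1 fell, Lyz2 by 2.88 (adjusted p = 0.00868, edgeR). Of 3 T cell markers tested 0 rose and 1 fell, Cd4 by 3.17 (adjusted p = 0.0067, edgeR), while Lck had 0.76 (0.133). Their part in the results below was not tested.

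Interferons signal through receptor-bound Janus kinases to STAT proteins, which bind DNA as dimers or, with IRF9, as a complex that recognises the interferon-stimulated response element in the promoters of target genes. The effectors made from those genes block viruses at different steps: some bind viral RNA, some modify proteins or lipids, and some sense viral RNA and feed back on interferon production. Type I interferons are their strongest inducers, and IFNγ induces many of them in macrophages.

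The IFIT proteins bind viral RNA ends and block its translation. In the RefSeq annotation of GRCm38.p6, Ifit2 (chr19:34550550-34576534), Ifit3 (chr19:34583119-34588982) and Ifit1 (chr19:34640889-34650009) lie on the + strand of the same stretch of chromosome 19. Rsad2 (chr12:26442743-26456452, - strand) encodes viperin, which makes a chain-terminating nucleotide. Isg15 (chr4:156199424-156200818, - strand) encodes a ubiquitin-like modifier, and Ifi44 (chr3:151730922-151749910, - strand) a cytoplasmic protein of less clear role. Oasl2 (chr5:114896926-114912245, + strand) and Oasl1 (chr5:114923143-114937911, + strand) encode relatives of the oligoadenylate synthetases. Mx1 (chr16:97447035-97462906) encodes a dynamin-like GTPase that is not functional in C57BL/6 mice, and RefSeq lists it there as a transcribed pseudogene. Ifih1 (chr2:62595618-62646255, - strand) encodes MDA5, a sensor of long double-stranded RNA.

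The promoters of these genes differ in the motif letters they hold. The 250 bases before the RefSeq start site were searched on both strands for a pair of GAAA letters with any 2 bases between them, the core of the interferon-stimulated response element, which 2.98% of 32851 mouse promoters of that length hold. Ifit1 and Ifit3 held 2 matches each, Isg15 held 3 that overlap, and Rsad2 held 1. Ifi44 and Oasl1 held only the shorter letters AAANNGAAA (9.37% of promoters), at 1 and 2 places. Neither set of letters was found before the starts of Ifit2, Oasl2 and Ifih1 in this window, and Mx1 was not searched. Near the starts listed for Ifit2, 1 of 2 windows held TTCNNNGAA, the core of a gamma-activated site (7.02% of promoters). A match is a description of the letters and not a shown binding site.

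These 4 promoters, given 5′ to 3′ on the strand of the gene from RefSeq (GRCm38.p6) with matches to the GAAA pair, or to its reverse complement (a TTTC pair at the same spacing), in capitals, show the forms that the match takes. Ifit1 is chr19:34640639-34640888 on the + strand, Isg15 is chr4:156200819-156201068 on the - strand, Rsad2 is chr12:26456453-26456702 on the - strand, and Ifih1, which has no match, is chr2:62646256-62646505 on the - strand.
Ifit1: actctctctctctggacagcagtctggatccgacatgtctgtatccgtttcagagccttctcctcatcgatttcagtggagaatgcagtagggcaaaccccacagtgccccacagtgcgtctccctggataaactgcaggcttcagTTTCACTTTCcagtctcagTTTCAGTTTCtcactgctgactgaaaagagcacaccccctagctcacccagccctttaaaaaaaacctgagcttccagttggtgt
Isg15: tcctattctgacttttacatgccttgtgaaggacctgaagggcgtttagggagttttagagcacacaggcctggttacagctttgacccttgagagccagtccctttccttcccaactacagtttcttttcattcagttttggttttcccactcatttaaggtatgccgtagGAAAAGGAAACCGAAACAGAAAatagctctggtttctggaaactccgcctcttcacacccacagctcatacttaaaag
Rsad2: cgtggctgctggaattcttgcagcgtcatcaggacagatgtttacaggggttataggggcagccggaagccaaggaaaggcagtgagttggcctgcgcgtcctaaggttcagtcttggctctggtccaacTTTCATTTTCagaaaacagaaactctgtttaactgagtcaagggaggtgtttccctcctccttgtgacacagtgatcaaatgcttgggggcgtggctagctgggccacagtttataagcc
Ifih1: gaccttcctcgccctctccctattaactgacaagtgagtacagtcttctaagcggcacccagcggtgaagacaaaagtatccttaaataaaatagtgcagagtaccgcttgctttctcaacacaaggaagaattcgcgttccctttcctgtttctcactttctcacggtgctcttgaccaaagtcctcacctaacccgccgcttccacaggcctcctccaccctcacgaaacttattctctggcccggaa
The Ifit1 matches, TTTCACTTTC and TTTCAGTTTC, begin 104 and 85 bases before the start site. Both decamers also stand before Ifit3, from 156 and 122 bases before its start. In Isg15 the cores run end over end from 78 to 57 bases before the start, and in Rsad2 the match begins 120 bases before it.

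**Figure D1:**
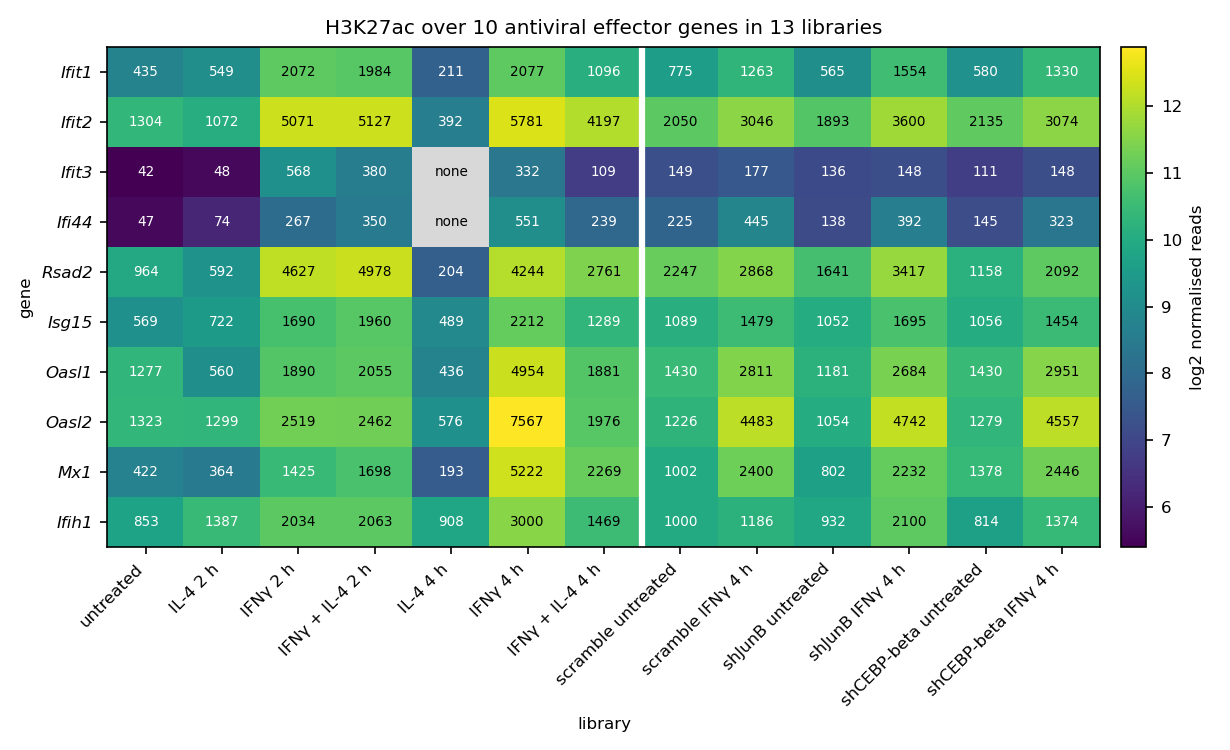
Normalised H3K27ac reads of the 10 genes (rows) in the 13 libraries (columns), with the number in each cell and colour on a log2 scale; "none" marks a library with no island, and the white line divides the unmodified libraries from those with an shRNA. IFNγ at 4 h was the highest library for 8 of 10 genes, and IL-4 at 4 h was the lowest for 7 of the 8 genes with an island there.

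With IFNγ alone, acetylation over these genes was higher than in untreated macrophages at both times. At 4 h, 10 of 10 genes were called higher and 0 lower, where 16.7% of 13457 measured genes were higher and 15% lower. At 2 h, 8 of 10 were called higher and 0 lower, beside 15.7% and 13.9% of 13294 genes. The median of the 10 ratios was 3.62 after 2 h of IFNγ and 4.60 after 4 h, where the median log2 ratio of all genes was 0.01 at each time. Both ratios rest on the same untreated library. The genes called at 4 h but not at 2 h were Oasl1 and Oasl2. In proportion to overlap, 8 of 10 were called higher at 4 h (14.7% of genes), without Ifit1 and Ifih1, and 5 of 10 at 2 h (13.3%).

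Ifit2, the IFIT gene with the most reads, stood at 1304 normalised reads untreated, 5071 after 2 h and 5781 after 4 h of IFNγ. The ratio to untreated cells was 3.89 at 2 h (95% interval 3.64 to 4.16), and 4 h gave 4.43 (4.16 to 4.73). Ifit1 went from 435 to 2072 and 2077, a ratio of 4.77 (4.26 to 5.35) and 4.78 (4.28 to 5.35). For both, the level at 2 h was already close to that at 4 h. The Ifit1 island also covers Ifit1bl1 and Ifit1bl2, so reads of these genes cannot be told apart, and counted in proportion to its overlap with the Ifit1 window the 4 h ratio was 1.99. Ifit3 had 42.5 reads untreated, 568 at 2 h and 332 at 4 h, or 13.4 times the untreated value (9.48 to 19.4) and then 7.80 times (5.53 to 11.4). Its islands held few reads in the control as well, 3.53 per kb against 6.30 to 13.9 per kb at the other members. An island lay over its start site in 5 of 13 libraries only. Ifit3 has a near-identical neighbour, Ifit3b, and its value is uncertain if reads were split or lost between them.

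Rsad2 had 964 reads untreated, 4627 at 2 h and 4244 at 4 h, 4.80-fold (4.45 to 5.19) and 4.40-fold (4.09 to 4.75) the untreated level. With IFNγ its island also takes in part of Cmpk2, a nucleotide kinase gene that lies beside it. With reads taken in proportion to overlap, the 4 h ratio was 2.57. The level of Rsad2, like that of Ifit1, was thus reached by 2 h. Isg15 went from 569 to 1690 and 2212, and Ifi44 from 47.3 to 267 and 551. The Ifi44 ratio was 5.63 for the earlier time (4.01 to 8.12) and 11.6 for the later (8.43 to 16.5), on few reads in untreated cells. Isg15 shares its island with parts of Agrn and Perm1.

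A further gain from 2 h to 4 h was seen at Mx1, Oasl1 and Ifi44. Against IFNγ at 2 h, the 4 h library was called higher at 4 of 10 members and lower at 0, beside 8.24% and 8.03% of 13312 genes. Those members were Mx1, Oasl2, Oasl1 and Ifi44, of which in proportion to overlap only Oasl1 was called. Mx1 had 422 reads untreated, 1425 at 2 h and 5222 at 4 h, a 3.67-fold step between the times (3.45 to 3.89). Its 4 h island runs on over the neighbouring gene Fam3b, and in proportion to overlap the step was 1.82-fold. Oasl1 stood at 1277, 1890 and 4954, a step of 2.62-fold (2.49 to 2.77), or 2.04-fold in proportion to overlap. Oasl2 stood at 1323, 2519 and 7567, but at 4 h the island of Oasl1 reaches the Oasl2 window and is counted there too. The island over the start of Oasl2 itself had 1323 reads untreated, 2429 at 2 h and 2662 at 4 h, so that the 2 h value was 0.913 of the 4 h value. Ifih1 stood at 853, 2034 and 3000, of which the last was 3.52-fold the first (3.24 to 3.81). When counted in proportion to overlap, the Ifih1 ratio was 1.48, under the 2-fold rule.

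**Figure D2:**
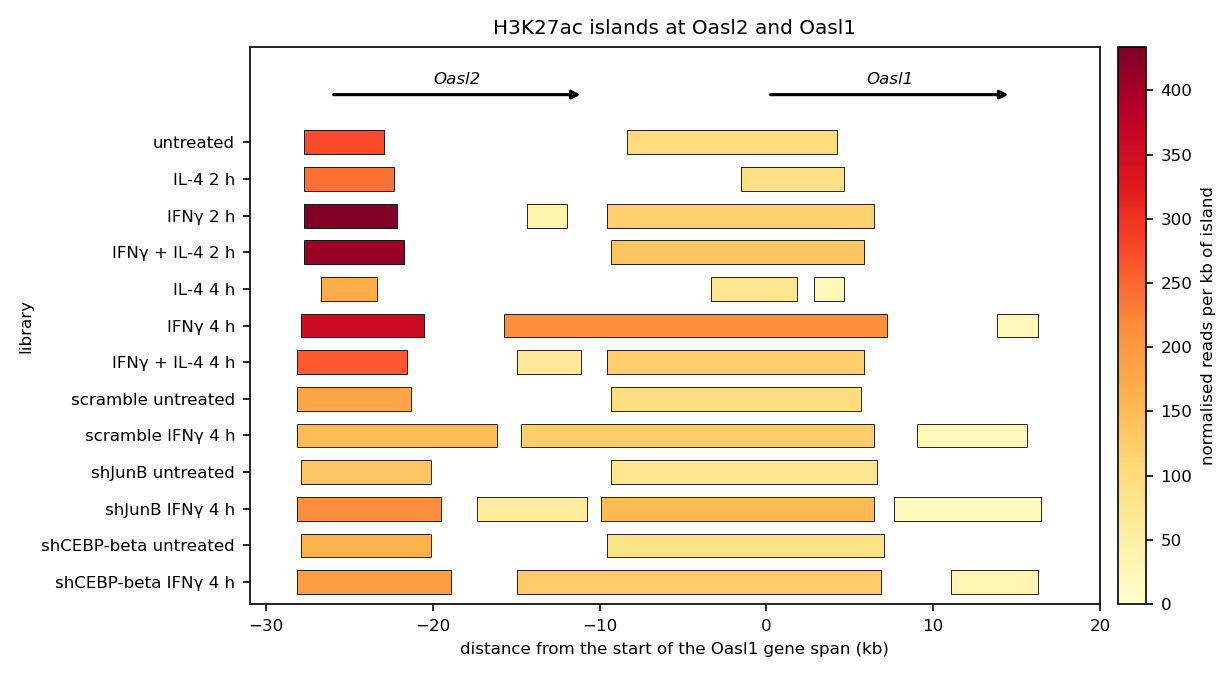
Islands at Oasl2 and Oasl1 by library, drawn to scale as distance in kb from the start of the Oasl1 span and coloured by normalised reads per kb of island. With IFNγ for 4 h, the island of Oasl1 reaches the window of Oasl2 in the unmodified, scramble, shJunB and shCEBP-beta libraries, and with IL-4 alone it is shorter (6.2 kb at 2 h and 5.2 kb at 4 h) than in untreated unmodified cells (12.6 kb).

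IL-4 alone for 4 h went with less acetylation at most of these genes. Of the 10 members 6 were called lower than in untreated cells and 0 higher, beside 13% and 9.72% of 13194 genes, and the median log2 ratio was -1.09 against 0.00 over all genes. Rsad2 had 204 reads with IL-4 at 4 h against 964 untreated, 4.73-fold lower, or a ratio of 0.392 in proportion to overlap. Ifit2 had 392 against 1304, 3.33-fold lower, and Oasl1 had 436 against 1277, 2.93-fold lower. Oasl2 (576 against 1323), Mx1 (193 against 422) and Ifit1 (211 against 435) made up the rest of the 6. Under the count in proportion to overlap, the Ifit1 ratio was 0.542. Over union regions, which give every library the same boundaries, Mx1 had 555 reads against 639 untreated. Neither was called there. Ifit3 and Ifi44, which were low before, had no island at 4 h of IL-4 and entered the median with the filled-in value for a library without an island. Isg15 (489 against 569) and Ifih1 (908 against 853) were not called. At 2 h, IL-4 alone gave 1 call, Oasl1 lower at 560 reads, beside 12.9% of 13158 genes lower and 11.3% higher. The 2 h values of the others lay on both sides of the untreated library, with Rsad2 at 592 and Ifih1 at 1387. Part of the Oasl1 difference lies in the length of the island, and in proportion to overlap its 2 h ratio was 0.959.

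IL-4 added to IFNγ showed a difference between the times. At 2 h, 0 of 10 members were called either way against IFNγ alone, beside 4.55% of 13147 genes higher and 5.48% lower, and their median log2 ratio was 0.06. At 4 h, 6 of 10 were called lower and 0 higher, beside 7.88% and 8.16% of 13403 genes. All 10 stood below IFNγ alone at 4 h, with a median log2 ratio of -1.12 against 0.01 over all genes. Mx1 had 2269 reads with both cytokines at 4 h against 5222 with IFNγ (2.30-fold lower), Oasl1 had 1881 against 4954 (2.63-fold lower) and Ifi44 had 239 against 551 (2.30-fold lower). Ifit3 had 109 against 332 reads and Ifih1 had 1469 against 3000, a ratio of 0.490 (0.464 to 0.516). In proportion to overlap the Ifih1 ratio was 0.558, and over union regions that of Ifit3 was 0.573, both short of the rule. Over union regions Oasl1 had 3857 against 7616 reads and Oasl2 3857 against 7567, also short of it. The members still called over union regions were Mx1, Ifi44 and Ifih1. Oasl2 had 1976 against 7567, and over its own start 1731 against 2662, a ratio of 0.651. The 4 members not called stood closer to IFNγ alone, with Ifit2 at 4197 against 5781 reads (a ratio of 0.726), Rsad2 at 2761 against 4244 (0.651), Isg15 at 1289 against 2212 (0.583) and Ifit1 at 1096 against 2077 (0.528, or 0.877 in proportion to overlap).

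Acetylation with both cytokines stood above that of untreated cells at every member, except that Ifih1 at 4 h had a ratio of 0.828 in proportion to overlap. At 2 h 8 members were called higher and 0 lower (15.7% and 14.2% of 13362 genes), and at 4 h 7 were called higher and 0 lower (14.9% and 12.5% of 13370 genes), with median log2 ratios of 1.99 and 1.35. Members not called at 4 h were Oasl1, Oasl2 and Ifih1, at 1.47-fold, 1.49-fold and 1.72-fold. With reads taken in proportion to overlap, Ifit1 (1.75-fold), Rsad2 (1.92-fold) and Mx1 were not called either. These ratios share their untreated library with those of each cytokine alone. A fit of IL-4 added to IFNγ over the times, with 1 residual degree of freedom, called 0 members and 0 of 13357 genes with edgeR, a percent called of 0, although 1729 genes had an unadjusted p under 0.05. DESeq2 called 680 genes and 0 members. Their log2 differences were all negative in edgeR, from -0.22 for Ifit2 to -1.09 for Ifit3 (adjusted p = 0.386). On simulated data this fit found 0 of 100 genes changed 4-fold, so it could not be used to tell members that differ from members that do not.

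**Figure D3:**
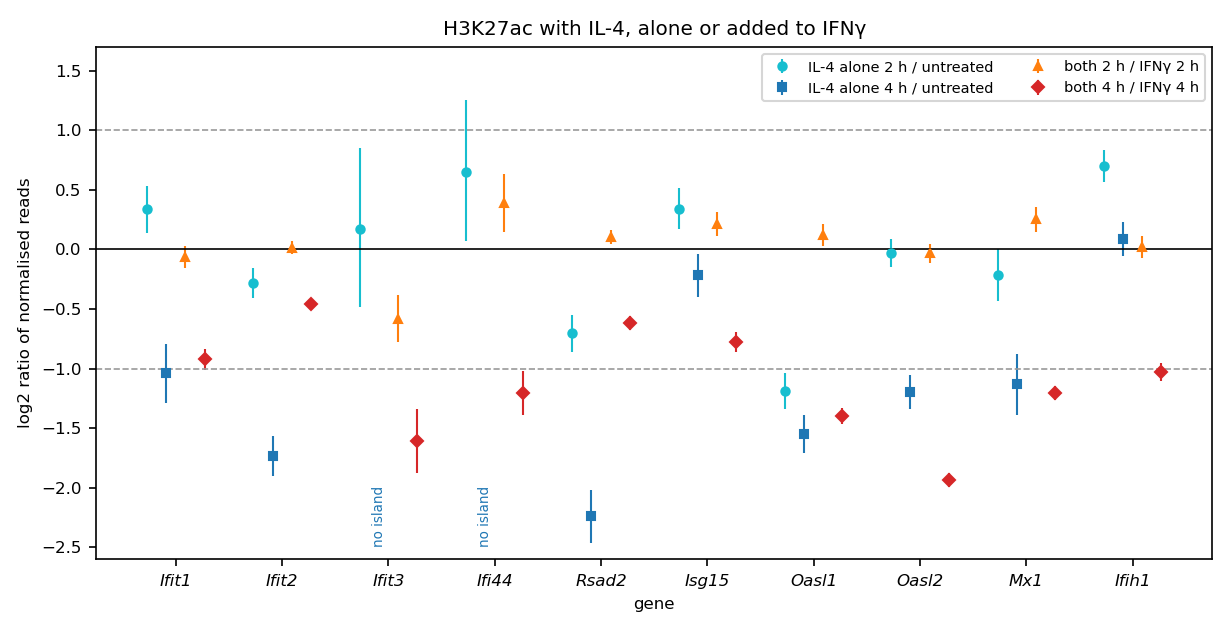
Log2 ratio of normalised H3K27ac reads for IL-4 alone over untreated cells and for both cytokines over IFNγ alone, at 2 h and 4 h, with 95% intervals for counting error; dashed lines mark 2-fold. With both cytokines, the 4 h ratios lie below 0 for all 10 genes, while those at 2 h lie from -0.58 to 0.39.

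IFNγ for 4 h is the only treatment with several pairs of libraries, from unmodified, scramble, shJunB and shCEBP-beta cells. These pairs come from different backgrounds and are not replicates of 1 condition. Each of the 10 members stood higher with IFNγ in all 4 pairs, although in proportion to overlap Mx1 did not in the shJunB pair (a ratio of 0.940). The edgeR quasi-likelihood fit with background as a block called 3 members higher and 0 lower, beside 13.2% of 14363 genes higher and 15.1% lower. The median log2 change of the 10 members was 1.19, against -0.02 over all genes tested. With TMM factors the calls over all genes were 2336 higher and 1702 lower, against 1898 and 2169 here. Oasl2 rose by 2.10 ± 0.16 on the log2 scale (SE, adjusted p = 0.0047, edgeR), Ifit1 by 1.40 ± 0.28 (adjusted p = 0.0259, edgeR) and Oasl1 by 1.29 ± 0.20 (adjusted p = 0.0161, edgeR). Oasl2 was the member called under all 17 alternatives, with a change of 1.19 when reads were taken in proportion to overlap (adjusted p = 0.00307, edgeR). In each IFNγ library of this fit the island of Oasl1 is counted for Oasl2 too, so the calls of both genes share reads. The island over the start of Oasl2 itself rose 2.01-fold in unmodified, 1.49-fold in scramble, 1.75-fold in shJunB and 1.39-fold in shCEBP-beta cells.

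Other members missed the threshold with edgeR, most of them narrowly. Their log2 changes and adjusted p were 1.73 and 0.0542 for Ifi44, 1.00 and 0.0563 for Ifih1, 1.09 and 0.0602 for Rsad2, and 1.75 and 0.0644 for Mx1. Ifit2 had 1.03 (adjusted p = 0.0692, edgeR), Isg15 0.88 (0.0889) and Ifit3 0.86 (0.288). Unadjusted, 9 of 10 had a p under 0.05, and DESeq2 called 9 higher (18.9% of genes). Without the unmodified pair edgeR called 7 members higher (12.8% of genes) and without the scramble pair 2 (4.36%). Without the shJunB pair it called 1 (4.29%), as it did without the shCEBP-beta pair (4.22%). The self-test of this fit changed 200 of 14363 genes and found 90 of 100 changed 4-fold and 11 of 100 changed 2-fold. A change near 2-fold was thus often missed there. In the data 4067 genes were called, among them Itgam with a log2 change of 0.42, so the shares found do not carry over directly.

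**Figure D4:**
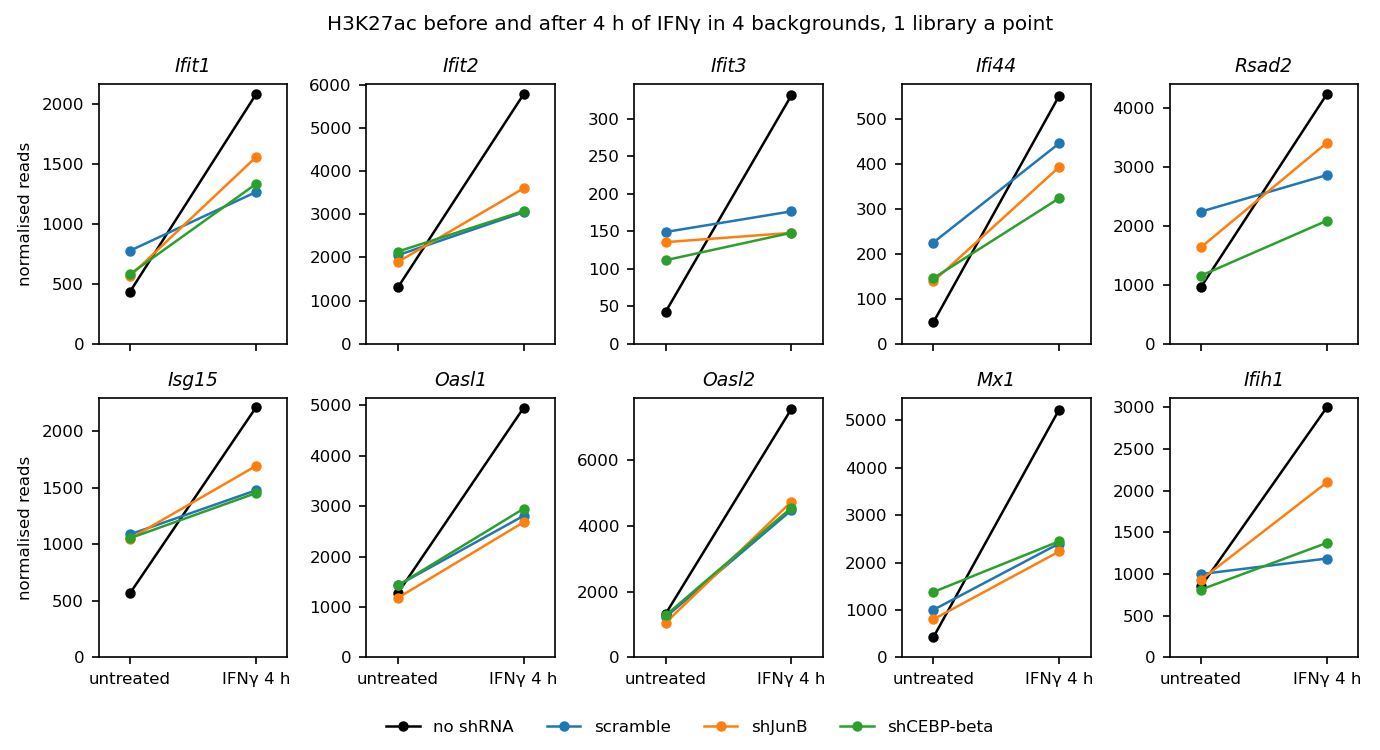
Normalised H3K27ac reads before and after 4 h of IFNγ for each gene, with 1 line per background and 1 library a point. The lines of the 3 shRNA backgrounds are flatter than that of unmodified cells for most genes, since 7 of 10 genes start higher and 10 of 10 end lower.

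In the libraries from shRNA cells the ratio of IFNγ to untreated was lower at the median of these genes than in unmodified cells, a difference with no replicate check. IFNγ gave 2 calls higher in scramble cells (8.6% of 13766 genes), 7 in shJunB cells (10.3% of 13633) and 4 in shCEBP-beta cells (9.33% of 13908), with 0 lower in each, against 10 in unmodified cells. Genes lower were 10.6%, 9.73% and 9.63% of all. The members' median ratios were 1.56-fold, 2.26-fold and 1.79-fold, against 4.60-fold in unmodified cells. Ifit3 stood at 149 without and 177 with IFNγ in scramble cells, 136 and 148 in shJunB cells, and 111 and 148 in shCEBP-beta cells. In the reads as counted, its untreated and IFNγ libraries overlap in the shRNA experiment, where in unmodified cells they stood at 42.5 and 332. When counted in proportion to overlap, the scramble ratio of Ifit3 was 2.04 and the shJunB ratio 1.83, against 1.18 and 1.09. Mx1 stood at 1002 and 2400 in scramble cells, 802 and 2232 in shJunB cells, and 1378 and 2446 in shCEBP-beta cells. Under the count in proportion to overlap, the ratios were 1.03 in scramble, 0.940 in shJunB and 1.59 in shCEBP-beta cells.

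The levels differed at both ends. Untreated, 7 of 10 members stood above the unmodified library in all 3 shRNA backgrounds, a pattern held by 40.6% of genes. With IFNγ, 10 of 10 stood below the unmodified library in all 3 (34.8% of genes), and 7 showed both patterns, as did 7.22% of genes. In proportion to overlap these counts were 6 (33.8% of genes), 8 (38% of genes) and 5 (6.24% of genes). With IFNγ, Ifit1 and Rsad2 were then below the unmodified library in some shRNA backgrounds but not in all 3. Untreated Isg15 stood at 1052 to 1089 reads in the shRNA backgrounds and at 569 in unmodified cells, and with IFNγ at 1454 to 1695 against 2212. With reads taken in proportion to overlap, untreated Isg15 had 330 reads in scramble, 284 in shJunB and 390 in shCEBP-beta cells against 293 in unmodified cells, so the groups then overlap. Ifi44 stood at 138 to 225 against 47.3 untreated, and at 323 to 445 against 551 with IFNγ. Oasl2, at 1054 to 1279 against 1323, was the member with no shRNA library above the unmodified one untreated. Every IFNγ library stood above every untreated library within the shRNA experiment for 8 of 10 members (23.7% of genes), the exceptions being Ifit3 and Rsad2. When counted in proportion to overlap, 7 of 10 did so (21.5% of genes), without Isg15, Mx1 and Ifih1. Over union regions 10 of 10 did so (26% of genes), Ifit3 and Rsad2 among them.

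Between the untreated libraries of scramble and unmodified cells, 4 members were called higher (13.6% of 13561 genes) and 0 lower (5.12%), namely Ifi44, Ifit3, Mx1 and Rsad2. Under the count in proportion to overlap, Mx1 (1.48-fold) and Rsad2 (1.98-fold) were not called, and Ifit1 turned from 1.78-fold higher to a ratio of 0.732. Their median log2 ratio over all 10 was 0.89, against 0.12 over all genes. With IFNγ, 0 were called higher (12.3% of 13612 genes) and 2 lower (7.9%), Ifih1 and Mx1, of which Ifih1 had a ratio of 0.395, or 0.965 in proportion to overlap. The labels do not give a date or batch, so experiment and shRNA cannot be told apart, and the shRNA libraries also had more of the genome in islands.

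The difference in response was tested as an interaction, the IFNγ change in the 3 shRNA pairs minus that in the unmodified pair. It was negative for all 10 members, from -0.56 for Oasl2 to -2.70 for Ifit3, with a median of -1.41 against -0.04 over all genes. In proportion to overlap it turned for Ifit1, from -1.14 to 0.05, and was -0.22 for Ifih1 in place of -1.09. With edgeR 0 members were called, beside 0.515% of 14363 genes higher and 0.341% lower, and 8 had an unadjusted p under 0.05. The smallest adjusted p were 0.0540 for Ifit3 and 0.0697 for Ifi44 (edgeR). DESeq2 called 7 members lower (4.81% of genes) and 0 higher (3.54%). Union regions also gave 7 lower (6.65% of genes) and 0 higher (5.42%) with edgeR. On simulated data the edgeR fit found 0 of 100 genes whose response differed 4-fold, so 0 calls here do not show that the responses were alike. In the data this fit called 123 genes, so the share found on simulated data does not carry over directly.

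Against scramble, the shRNAs to Junb and Cebpb gave 0 calls among these genes by the rule of size. Few genes of any kind passed it (1.83% to 4.79% each way), so 0 of 10 is near the share of all genes. With untreated cells, shJunB gave 0 calls higher (4.03% of 13608 genes) and 0 lower (3.92%), and with IFNγ also 0 higher (4.79% of 13460) and 0 lower (2.91%). For shCEBP-beta 0 were called untreated (3.5% of 13717 genes higher, 2.36% lower) and 0 with IFNγ (3.95% of 13505 higher, 1.83% lower). With reads taken in proportion to overlap, untreated Ifit1 was 2.15-fold higher with shCEBP-beta than with scramble, against a ratio of 0.749 in the reads as counted. Untreated shJunB cells stood below scramble for all 10 members, by a median of -0.25 on the log2 scale, while with IFNγ 6 stood above. When counted in proportion to overlap, the untreated direction turned for Ifit1 (1.54-fold higher) and Mx1 (1.26-fold higher). The untreated differences were small for most, as for Ifit2 at 1893 against 2050 reads, and greatest for Ifi44 at 138 against 225. Rsad2 was lower with shCEBP-beta in both states, at 1158 against 2247 untreated (1.94-fold lower) and 2092 against 2868 with IFNγ (1.37-fold lower). Its neighbour Cmpk2, in the same region, stood at 590 with shCEBP-beta and IFNγ against 2868 in scramble, since there the island of Rsad2 was split from that of Cmpk2. Counted over union regions, which do not split, the Rsad2 ratios were 1.05 and 0.935.

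Over both states, the edgeR fit for shJunB called 0 members and 0 of 14139 genes (percent called 0), with 1250 genes and 0 members at an unadjusted p under 0.05, and DESeq2 called 267 genes and 0 members. For shCEBP-beta it called 0 members, beside 0.0141% of 14139 genes higher and 0.00707% lower, and Ifi44 and Rsad2 had an unadjusted p under 0.05. The log2 difference of Rsad2 was -0.72 ± 0.21 (SE, adjusted p = 0.868, edgeR) and over union regions -0.01. That of Ifih1 with shJunB was 0.36 ± 0.26 (adjusted p = 0.664, edgeR), and in proportion to overlap it turned to -0.38 (adjusted p = 0.406, edgeR). The self-test found 45 of 100 genes changed 4-fold for shJunB and 55 of 100 for shCEBP-beta. Of genes changed 2-fold it found 1 of 100 and 0 of 100, so 0 calls here do not show that the levels were alike. Junb itself had 6233 reads of H3K27ac in untreated scramble cells, 5320 with shJunB and 5240 with shCEBP-beta. Cebpb had 3014, 2801 and 2976. Acetylation does not measure the RNA that an shRNA destroys, so these values do not check the knockdown.

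Among genes that sense viral RNA or carry the interferon signal, 8 of 22 rose over the 4 backgrounds with 4 h of IFNγ and 4 fell (edgeR, beside 13.2% and 15.1% of all genes), with a median log2 change of 0.37 against -0.02 over all genes. Usp18, the protease that removes ISG15 from proteins, rose by 1.94 ± 0.19 (SE, adjusted p = 0.00676, edgeR) and the kinase gene Jak2 by 1.89 ± 0.12 (adjusted p = 0.00411, edgeR). Ifngr1, a chain of the IFNγ receptor, fell by 1.97 (SE 0.26, adjusted p = 0.0107, edgeR). Of 28 tested genes among other antiviral interferon-stimulated genes, 11 rose and 2 fell, with a median of 0.53. Those that rose are not all separate, since Parp9 and Dtx3l had equal reads in most libraries. Ifit1bl1, also among them, shares a region with Ifit1. Zbp1, a sensor of Z-form nucleic acid, rose by 1.60 ± 0.22 (adjusted p = 0.0121, edgeR) and Ube2l6, the conjugating enzyme for ISG15, by 1.36 ± 0.14 (adjusted p = 0.00735, edgeR). Of 10 housekeeping genes 1 rose and 0 fell, a share near the 13.2% of all genes for those that rose. B2m rose by 0.76 ± 0.14 (adjusted p = 0.0215, edgeR), while Actb had 0.67 (0.0752) and Rpl13a -0.44 (0.375). B2m, the light chain of MHC class I, is itself induced by interferon.

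Ifnb1, which encodes interferon-β, was the interferon gene with an island in most libraries, 10 of 13. It had no island in untreated unmodified cells or with IL-4 alone. Under IFNγ its level was 137 reads at 2 h and 1927 at 4 h; with IL-4 added it was 41.8 and then 443. In the shRNA experiment Ifnb1 had 216, 173 and 197 reads untreated in scramble, shJunB and shCEBP-beta cells, and 1086, 1479 and 1069 with IFNγ. Ifnb1 was thus called in untreated cells with an shRNA and not in untreated unmodified cells, and was lower with both cytokines than with IFNγ at each time. Over the 4 backgrounds it rose by 3.17 ± 0.54 (SE, adjusted p = 0.0188, edgeR), a value that depends on the filling-in for the library without an island. Ifnl3 was called in 1 library only (log2 change -0.18, adjusted p = 0.487, edgeR), and Ifna4 and Ifng in none of the 13. Any part of Ifnb1 in the levels of the antiviral genes was not tested.

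Neighbours that share a region with a member give an idea of how far each member's value is its own. Over the 4 backgrounds Ifit1bl2 rose by 1.13 ± 0.21 (SE, adjusted p = 0.0236, edgeR) and Ifit1bl1 by 0.99 ± 0.23 (adjusted p = 0.0373, edgeR). Fam3b, beside Mx1, had 3.19 ± 0.90 (0.0569), Cmpk2, beside Rsad2, 1.34 ± 0.91 (0.311), and Bace2, on the other side of Mx1, -0.77 ± 0.30 (0.115). Agrn (0.98, adjusted p = 0.0733, edgeR) and Perm1 (1.09, 0.0713) share the Isg15 island. Ifit2, Ifit3, Ifi44 and Ifih1 shared no region with another protein-coding gene.

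The members resembled each other over the libraries. Pearson's r of each gene's log2 level with the mean of the other 9 was 0.75 for Ifih1 to 0.98 for Isg15 over the 13 libraries, which share treatments and depth, so r is a description. Of 11494 other genes with an island in every library, the 5 most like the members' mean were Parp12 (r = 0.99), Peli1, Adar and Nup98 (each 0.97) and Cd86 (0.97). Parp12 had 925 reads untreated, 1665 and 2092 with IFNγ at 2 h and 4 h, 698 with IL-4 at 4 h, and 1385 with both at 4 h. Its untreated levels with an shRNA were 1096 to 1137. Cd86, a costimulatory receptor, had a wider range, from 311 with IL-4 at 4 h to 10816 with IFNγ at 4 h.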

How the data were processed

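H3K27ac was measured in 13 libraries, 1 per condition. Per the submitters' processing notes, the authors used Bowtie2 2.2.6 and SICER 1.1, with mm10 and GRCm38 as builds. A deposited file holds 1 library's islands, with edges on a 200 bp grid, and for each island the deposited counts of reads from the ChIP and from the control, not normalised. The deposited p-value and FDR are the authors' own (every FDR is under 0.01), and their deposited fold is a ratio of ChIP to scaled control reads. Islands that missed the threshold are absent, so no island does not mean a level of 0.

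A gene's value is the sum of ChIP reads in islands that overlap its RefSeq GRCm38.p6 span by at least 1 bp, with 1 kb on either side. Of 21888 genes in the table (21887 protein-coding, and Mx1) 14659 had an island. Size factors were median-of-ratios factors over 14347 of 39569 merged regions, those with an island in all 13 libraries. For tests, list medians and the rule of size, a library without an island took as its value percentile 5 of the reads in its own islands. Genes with a mean of at least 50 normalised reads were tested with edgeR 4.0.16 (quasi-likelihood, Benjamini-Hochberg over all genes tested, called at an adjusted p under 0.05), with DESeq2 1.42.0 as an alternative, in R 4.3.3. SE is the log2 change over the root of F. Intervals of a ratio are exact binomial 95% intervals for counting error; p-values measure the spread between pairs of libraries from different backgrounds or states. The fits were tested on simulated data with 200 changed genes. Promoters of 250 bases were read from RefSeq. Alternatives were other size factors, island sets, overlaps, filters, tools and blocks, and leaving out each pair. Named genes were the 10 members, the 3 genes of each other list with the largest change over the 4 backgrounds, genes sharing a region with a member, and the 5 most like the members' mean. The members, lists and tests were chosen with earlier results of these data known. One gene that this rule names is not reported here. Itgam, Lyz2, Cd4, Cd3d, Cd3e, Lck, Elane, Parp9, Dtx3l, Ifna4 and Ifng were named after their values were seen. 0 value columns were left without a sample.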

Additional observations from a re-analysis of the deposited data

How the results depend on the processing

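Depth limits the low genes, Ifit3 and Ifi44, and no alternative supplies a second library of a condition; the causes of the shifts below were not tested. Over the 4 backgrounds 3 members were called higher as reported (13.2% of all genes), and some alternatives moved both the count and this share. The count was 6 with TMM factors (16.3%), 5 with relative depth (12.6%) and 5 with only genes with an island in every library (15.3%). It was 8 with union regions (20.6%), 6 with reads in proportion to overlap (13.8%), 9 with DESeq2 (18.9%) and 9 without the background block (12.1%). When a pair was left out it was 1 to 7 (4.22% to 12.8%). Members called lower in the interaction, 0 as reported (0.341% of all genes), numbered 7 with union regions (6.65%) and 7 with DESeq2 (4.81%). They numbered 1 each with missing islands set to 0 (2.06%), with reads in proportion to overlap (1.19%) and with an overlap of at least 400 bp (0.489%). No paired analysis by replicate number was possible because each condition had 1 library. The background block pairs libraries of the same background, and these pairs are not replicates of 1 condition.

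For pairs of libraries under the rule of size, union regions gave 2 members higher at 4 h than at 2 h of IFNγ, 0 lower with IL-4 at 2 h, 3 lower with both cytokines than with IFNγ at 4 h, 0 higher with IFNγ in scramble cells, 1 higher with IFNγ in shCEBP-beta cells, and 1 lower in scramble than in unmodified cells with IFNγ. Reads in proportion to overlap gave 5 higher with IFNγ at 2 h, 1 higher at 4 h than at 2 h, 0 lower with IL-4 at 2 h, 4 higher with both cytokines at 4 h than untreated, 1 higher with IFNγ in shCEBP-beta cells, 1 higher with shCEBP-beta untreated, and 2 higher in scramble than in unmodified untreated cells. They also turned the Mx1 log2 ratio for IFNγ in shJunB cells negative, at -0.089. With the gene span alone 1 was lower at 4 h than at 2 h of IFNγ, 1 with IL-4 added at 2 h and 1 with shJunB and IFNγ, as was 1 there with an overlap of at least 400 bp. TMM factors and control reads subtracted each gave 4 higher with IFNγ in scramble cells. Relative depth gave 1 lower with shCEBP-beta untreated, as did control reads subtracted, and 1 lower in scramble than in unmodified cells with IFNγ. The share of all genes was not worked out for most of these pair counts, so they cannot be set against it.

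Counts over all genes moved as well. The 4067 genes called over the 4 backgrounds became 6263 with union regions and 1143 to 3782 without a pair. In the interaction 123 became 504 with missing islands set to 0, 1737 with union regions, 330 with reads in proportion to overlap, 214 with the gene span alone, 1199 with DESeq2, and 0 with only genes with an island in every library or without any shRNA pair. The 3 genes for shCEBP-beta became 102 with DESeq2 and 0 to 2 under the other alternatives that changed them. DESeq2 called 267 for shJunB and 680 for IL-4 added to IFNγ, where edgeR called 0.

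Reads in proportion to overlap also turned fitted log2 differences of members not called in either setting. In the interaction Ifit1 became 0.0548. For shJunB, Ifit1 became 0.516, Rsad2 0.0683, Isg15 -0.384, Oasl1 0.0502, Mx1 0.269 and Ifih1 -0.375, and for shCEBP-beta Ifit1 became 0.654 and Ifit3 0.0566. Union regions turned Ifit1 (0.0845) and Rsad2 (0.0851) for shJunB and Ifit3 (0.0681) for shCEBP-beta. For shCEBP-beta, Ifit3 became 0.155 with the gene span alone and 0.157 with islands at an FDR of at most 1e-10, and relative depth gave -0.0313 for Ifit2, -0.0310 for Oasl1 and -0.0239 for Oasl2. Without the block for IFNγ, Ifit1 (0.0562) and Oasl2 (0.0222) turned for shJunB and Ifih1 (0.00153) for shCEBP-beta.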
